A study of Mus musculus with 11 samples.

Results

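The subject is the difference between 2 genotype effects, that of the Bmal1-/- genotype in neurospheres and that in the corpus callosum, the large tract of axons between the hemispheres. All 11 libraries of the series enter it, chosen by their titles: 3 from wild-type neurospheres, 3 from Bmal1-/- neurospheres, 3 from wild-type callosum and 2 from Bmal1-/- callosum. Every mouse was 8 to 10 weeks old. Neurospheres are suspended spheres of cultured neural stem cells and their progeny, here kept for 1 week after dissection of the subventricular zone (the germinal layer beside the lateral ventricles) in medium with EGF at 20 ng/ml and heparin at 2 ug/ml, and the callosum was dissected and extracted directly. The callosum RNA thus came from tissue and the neurosphere RNA from cells kept in culture, so genotype is crossed with source, and source cannot be told apart from culture. The labels do not say which exons of Bmal1 the Bmal1-/- allele lacks, at what time of day tissue was taken, or whether each library is a different animal.

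BMAL1, whose gene carries the symbol Arntl, pairs with CLOCK or NPAS2, binds E-box sequences and activates the Period, Cryptochrome, Rev-erb (Nr1d1, Nr1d2) and Dbp genes. PER and CRY proteins then repress that pair, while the REV-ERB receptors repress, and the ROR receptors activate, a second set that includes Arntl, Npas2, Cry1 and Nfil3. DBP, TEF and HLF activate genes through D-box sequences, which NFIL3 represses. In the brain, loss of BMAL1 is known for a reactive state of astrocytes, and in neural progenitors the clock is known to gate division.

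For each gene the interaction is the log2 fold change (Bmal1-/- over wild type) in neurospheres minus that in the callosum. A positive value means that the genotype difference was higher in neurospheres, a value of 1 being a 2-fold gap, and a constant offset of a gene between the sources drops out. Levels are given as CPM, gene counts scaled to library size with TMM factors over the 11 libraries, and are compared within a gene only. Gene counts summed to 17450270 to 19717848 per library, and 3 counts, the most that a gene with no read may hold, correspond to 0.131 to 0.136 CPM in neurospheres and 0.202 to 0.212 CPM in callosum libraries, for counting error only. A gene counted as measured in a source where the mean of at least 1 genotype group was 1 CPM or more. Of 15322 genes tested, 12163 were measured in both sources, 1481 in the callosum only, 935 in neurospheres only and 743 in neither.

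Markers went with the source labels. Genes of neural stem and progenitor cells summed to 6176 to 9010 CPM in neurospheres against 676 to 940 CPM in the callosum, and myelin genes to 2041 to 3249 CPM against 25300 to 39360 CPM. The dissected callosum also held 33050 to 45080 CPM of mature neuron genes. Bmal1-/- neurosphere replicate 1 stood apart. Of its reads 22.6% were unmapped, against 13.7% to 16.2% in the other neurosphere libraries and 7.77% to 8.46% in the callosum. Its deviation from the mean of the other libraries of its source was lower for longer transcripts. The rank correlation over genes, given as a description, was -0.655, against 0.222 to 0.433 in the other 5 neurosphere libraries. The mean set against each of those 5 includes replicate 1. The lowest such value in the callosum, -0.191 against -0.0265 to 0.141 in the other 4, belonged to Bmal1-/- callosum replicate 1, 1 of only 2 libraries of its group. Arntl does not check the genotype labels. It stood at 37.9, 48.8 and 45.3 CPM in wild-type and 40.5, 42.3 and 48.2 CPM in Bmal1-/- neurospheres, and at 39.7, 36.3 and 33.0 CPM against 32.6 and 40.8 CPM in the callosum. Its interaction was -0.03 (95% interval -0.54 to 0.49), and Gm45355 overlaps it on the opposite strand. Every direction given is therefore that of the libraries labelled Bmal1-/-.

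Across the 15322 genes, the genotype difference passed a test of inequality between the sources for 2 genes, C4b and Mmp14, or 0.0131% of those tested (edgeR quasi-likelihood F test, adjusted p under 0.05, called below). Both were higher in Bmal1-/- callosum and showed no such rise in neurospheres, so both interactions were negative. No gene passed with a positive interaction. Without adjustment, 427 interactions were positive at a p under 0.05 (2.79% of those tested) and 229 negative (1.49%), 4.28% in all. The median standard error of the interaction over genes measured in both sources was 0.316 on the log2 scale, against 0.207 and 0.238 for the genotype difference in neurospheres and in the callosum, so this contrast was the least precise of the 3. DESeq2 called 37 interactions, 16 of them positive and 21 negative, and limma-voom called the same 2 genes.

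C4b (chromosome 17, 34728139 to 34743902, GRCm38) encodes complement component C4, which tags membranes for the complement cascade. In wild-type neurospheres it stood at 68.3, 70.6 and 68.2 CPM, and in Bmal1-/- neurospheres at 46.1, 82.2 and 52.6 CPM, so the groups overlapped. In the callosum it stood at 34.8, 49.7 and 36.9 CPM in wild type and 390 and 514 CPM in Bmal1-/- libraries, 11.2-fold higher, with no overlap. The log2 fold change was -0.20 ± 0.22 (SE) in neurospheres and 3.48 ± 0.25 in the callosum (edgeR adjusted p = 0.000142). The interaction was -3.675 ± 0.33, with a 95% interval from -4.39 to -2.96 (edgeR adjusted p = 0.00165), and it passed in each of the 20 alternatives run, the leave-one-out fits included, at adjusted p-values up to 0.0218. C4b shares 35.2% of its 50-base stretches with its neighbour C4a, and reads that map to both are not counted. C4a, looked up after the values of C4b were seen, stood at 0.611 to 0.888 CPM in neurospheres and 2.01 to 3.63 CPM in the callosum, with an interaction of 0.09 (-0.98 to 1.15). General astrocyte genes summed to 5367 to 5719 CPM in wild-type and 6502 and 7672 CPM in Bmal1-/- callosum, and to 8424 to 8715 against 7034 to 8684 CPM in neurospheres. These sums include Gfap, at 360 to 496 CPM in wild-type and 1877 and 1977 CPM in Bmal1-/- callosum. The median callosum log2 fold change of the 16 astrocyte genes measured in both sources was 0.01. The part of astrocyte genes in the difference was not tested. In bulk RNA more cells of a type and more RNA per cell cannot be told apart.

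Mmp14 (chromosome 14, 54431598 to 54442456) encodes a membrane-anchored metalloproteinase that cleaves collagen and activates the secreted protease MMP2. Neurospheres held 229, 273 and 281 CPM in wild type and 245, 281 and 275 CPM in Bmal1-/- libraries. Callosum libraries held 26.4, 26.9 and 25.2 CPM in wild type against 85.9 and 113 CPM in Bmal1-/-, a 3.79-fold rise without overlap, to a level still below every neurosphere library. The log2 fold change was 0.03 ± 0.14 (SE) in neurospheres and 1.92 ± 0.16 in the callosum (edgeR adjusted p = 0.000212), and the interaction was -1.89 ± 0.22 (95% interval -2.37 to -1.42, edgeR adjusted p = 0.0115). This call was less firm than that of C4b and ended in 7 of the 20 alternatives. Among these were a covariate for the striatal neuron genes of the callosum libraries (edgeR adjusted p = 0.0982) and the fits without wild-type neurosphere replicate 2 (0.0533), wild-type callosum replicate 1 (0.0534), 2 (0.0736) or 3 (0.1) or Bmal1-/- callosum replicate 2 (0.149), while the value itself stayed between -2.08 and -1.68 in the 20 alternatives. Related genes were looked up after these values were seen. Mmp2, the gene of the protease that MMP14 activates, had an interaction of -1.01 (-2.51 to 0.49), Mmp15, which encodes another membrane-type metalloproteinase, of -0.37 (-0.91 to 0.17), and the inhibitor genes Timp2 and Timp3 of -0.32 (-0.86 to 0.23) and 0.17 (-0.70 to 1.04). None of the 4 passed. Timp3 overlaps Syn3 on the opposite strand and shares 36.3% of its 50-base stretches with other genes, most often Syn3. Counts without regard to strand cannot tell the 2 genes apart there.

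**Figure D1:**
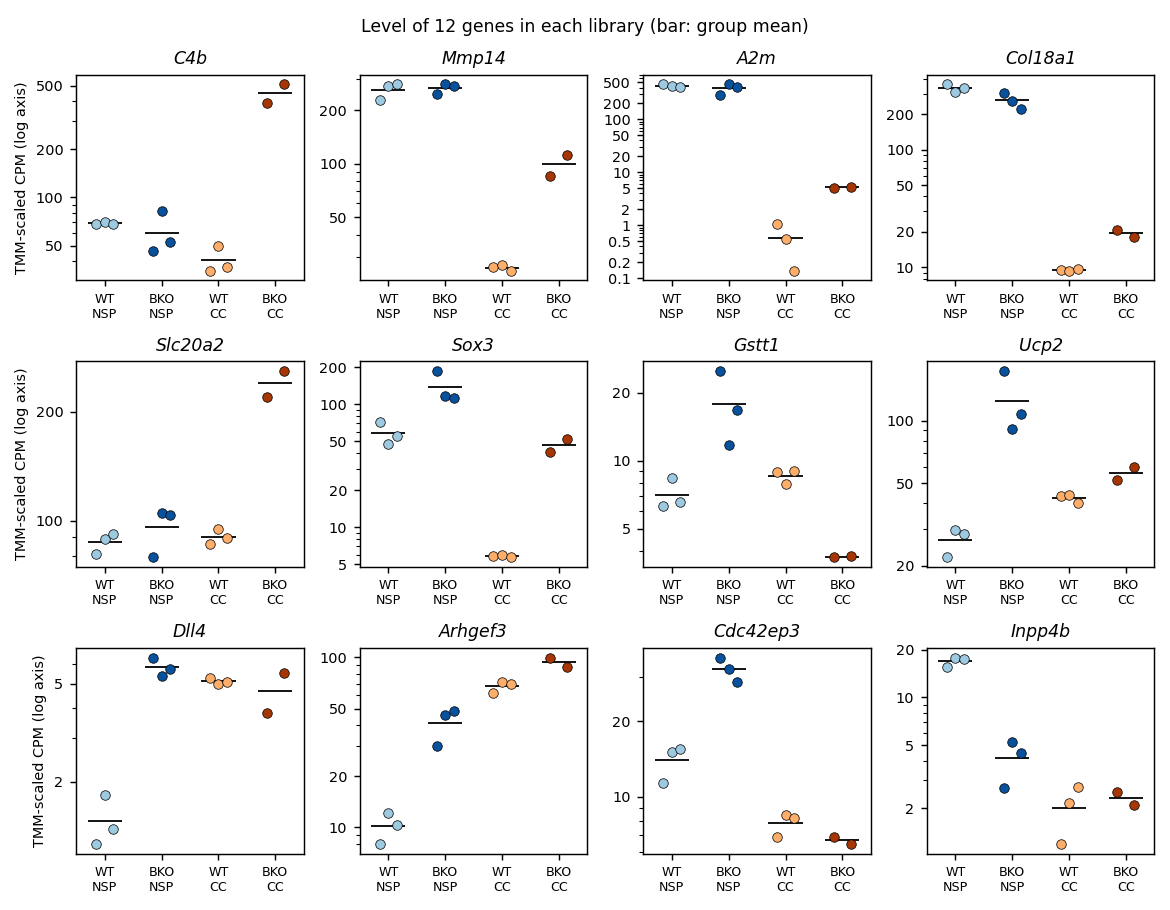
Level of 12 genes in each library, as CPM on log axes; each point is 1 library, the bar is the group mean, and WT, BKO, NSP and CC stand for wild type, Bmal1-/-, neurospheres and callosum. In C4b and Mmp14 the Bmal1-/- callosum points (390 and 514, 85.9 and 113 CPM) lie above all wild-type callosum points while the neurosphere groups overlap, whereas in Dll4, Cdc42ep3 and Inpp4b the genotypes separate in neurospheres and overlap in the callosum.

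Of the other 8 genes among the 10 smallest p-values with a negative interaction, none passed. Of these 8, 6 were called higher in the callosum, against 22 of all 15322 genes tested. The 8 were chosen by the p-value of a contrast that holds the callosum difference, so this count follows in part from the choice. A2m, which encodes the protease inhibitor alpha-2-macroglobulin, was abundant in neurospheres (412 to 469 CPM in wild type, 290 to 458 CPM in Bmal1-/-) and near absent in wild-type callosum (1.04, 0.538 and 0.139 CPM, the last from 2 counts), where the Bmal1-/- libraries held 5.08 and 5.25 CPM. Its interaction was -3.32 (95% interval -4.39 to -2.26, edgeR adjusted p = 0.0977). The transporter gene Slc20a2, which encodes a sodium-dependent phosphate carrier, was at similar levels in 3 of the 4 groups, with 81.0 to 92.1 and 79.2 to 105 CPM in neurospheres, 86.2 to 94.9 CPM in wild-type callosum, and 220 and 260 CPM in Bmal1-/- callosum (interaction -1.27, -1.75 to -0.80). Slc13a3, the gene of a dicarboxylate carrier, stood at 43.4 to 62.3 CPM over all neurosphere libraries and at 24.0 to 34.1 CPM against 83.0 and 77.9 CPM in the callosum (-1.45, -2.02 to -0.88). Bcl3, which encodes a nuclear regulator of NF-kappaB, stood at 1.59 to 2.02 CPM against 10.9 and 14.6 CPM in the callosum, with overlapping groups in neurospheres (-2.69, -3.84 to -1.54).

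In the callosum A2m rose by 3.16 ± 0.41 (SE, edgeR adjusted p = 0.00586), Slc20a2 by 1.41 ± 0.16 (0.00191), Slc13a3 by 1.51 ± 0.20 (0.00513) and Bcl3 by 2.76 ± 0.40 (0.0127) on the log2 scale. These calls depended on single callosum libraries. That of A2m ended without wild-type callosum replicate 2 (adjusted p = 0.057) or Bmal1-/- callosum replicate 1 (0.0677) or 2 (0.062), that of Slc20a2 without Bmal1-/- callosum replicate 2 (0.0568), that of Slc13a3 without Bmal1-/- callosum replicate 1 (0.0867) or 2 (0.0568), and that of Bcl3 without any 1 of the 5 callosum libraries (0.0677 to 0.154). With the striatal covariate those of A2m (0.282), Slc13a3 (0.224) and Bcl3 (0.282) also ended. Where 1 Bmal1-/- callosum library is left, it is taken to vary like the other groups.

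Sox3, which encodes a transcription factor of neural progenitors, went the same way in both sources by unequal amounts. In neurospheres it stood at 71.2, 47.8 and 55.1 CPM in wild type and 188, 116 and 114 CPM in Bmal1-/- libraries, 2.40-fold higher without overlap (log2 fold change 1.26, edgeR adjusted p = 0.0599). In the callosum it rose from 5.84, 5.91 and 5.68 CPM to 41.2 and 52.5 CPM, 8.05-fold (3.01 ± 0.26, SE, edgeR adjusted p = 0.000212), and this call held in all 20 alternatives. The interaction was -1.75 (95% interval -2.47 to -1.03) and did not pass (edgeR adjusted p = 0.193).

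Col18a1, which encodes a basement membrane collagen, was the only gene called in 1 source with an opposite sign and an unadjusted p under 0.05 in the other. It stood at 363, 308 and 336 CPM against 305, 262 and 222 CPM in neurospheres, and at 9.39, 9.34 and 9.63 CPM against 20.7 and 18.1 CPM in the callosum. The log2 fold changes were -0.35 ± 0.14 (SE, unadjusted p = 0.0315) and 1.04 ± 0.17 (edgeR adjusted p = 0.0306), with an interaction of -1.39 (-1.88 to -0.90, adjusted p = 0.114). The callosum call ended in 12 of 20 alternatives, among them upper-quartile scaling (adjusted p = 0.064), without any 1 of the callosum libraries (0.137 to 0.405) and without wild-type neurosphere replicate 2 (0.0659) or 3 (0.0769) or Bmal1-/- neurosphere replicate 2 (0.0553). Adamtsl3, whose product is a secreted ADAMTS-like protein, had the same signs (-0.70 and 1.78, interaction -2.48, -3.48 to -1.48), as did Cd44, which encodes a hyaluronan receptor (-0.19 and 1.91, interaction -2.10, -2.999 to -1.20). Cd44 was at 155 to 217 CPM in neurospheres and at 0.209 to 2.24 CPM in the callosum, where the wild-type libraries held 3 to 13 counts.

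No gene among the 10 smallest p-values with a positive interaction passed either. Of these genes, Dll4, Ucp2, Arhgef3 and Cdc42ep3 were called higher in Bmal1-/- neurospheres, with smaller differences in the callosum. Over all 15322 genes tested, 8 were called higher there. The interaction holds the neurosphere difference, so such calls follow in part from the choice. Dll4, which encodes a Notch ligand, rose in neurospheres from 1.12, 1.76 and 1.29 CPM to 6.37, 5.37 and 5.74 CPM, a difference of 2.06 ± 0.25 (SE, edgeR adjusted p = 0.00486). Its callosum values were 5.28, 4.97 and 5.06 CPM against 3.81 and 5.53 CPM, and its interaction was 2.19 (95% interval 1.40 to 2.98, edgeR adjusted p = 0.126). Ucp2, the gene of a mitochondrial carrier, rose in neurospheres from 21.9, 29.7 and 28.4 CPM to 175, 91.5 and 107 CPM (2.22 ± 0.23, adjusted p = 0.00222). Its callosum levels were 43.3, 43.8 and 40.3 CPM against 52.0 and 60.2 CPM, and its interaction was 1.82 (1.09 to 2.56). Its highest value belonged to Bmal1-/- neurosphere replicate 1, the library that stood apart, and without that library its interaction passed, as the plot of settings shows.

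Arhgef3, which encodes a guanine nucleotide exchange factor, rose in neurospheres from 7.96, 12.2 and 10.3 CPM to 30.01, 46.0 and 48.1 CPM (2.02 ± 0.21, SE, edgeR adjusted p = 0.00222) and stood at 62.0, 71.9 and 70.2 CPM against 99.8 and 88.1 CPM in the callosum (interaction 1.56, 0.88 to 2.23). Cdc42ep3, which encodes an effector of the GTPase CDC42, rose in neurospheres by 1.21 ± 0.18 (adjusted p = 0.0186) and had a log2 fold change of -0.24 in the callosum (interaction 1.45, 0.85 to 2.05). Its neurosphere call ended without wild-type neurosphere replicate 1 (0.0796), 2 (0.0903) or 3 (0.0753), Bmal1-/- neurosphere replicate 2 (0.0732) or wild-type callosum replicate 3 (0.0507), whereas those of Dll4, Ucp2 and Arhgef3 held when any 1 library was left out.

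Gstt1 had opposite signs in the sources with the smallest p-value among positive interactions. This glutathione S-transferase gene stood at 6.31, 8.37 and 6.57 CPM against 25.1, 11.7 and 16.8 CPM in neurospheres and at 8.90, 7.93 and 9.01 CPM against 3.74 and 3.78 CPM in the callosum. The genotypes did not overlap in either source. The log2 fold changes were 1.34 and -1.19, neither of which passed alone (edgeR adjusted p = 0.111 and 0.269), and the interaction of 2.53 (95% interval 1.66 to 3.41) had an adjusted p of 0.114. Its neighbour Gstt3 (chromosome 10, 75774117 to 75781422, beside Gstt1 at 75783813 to 75798584) had log2 fold changes of 1.19 and -1.28 and an interaction of 2.47 (1.35 to 3.59). Acta2, the smooth muscle actin gene, stood at 5.86 to 7.29 against 15.8 to 23.9 CPM in neurospheres and at 11.3 to 21.6 against 5.22 and 10.6 CPM in the callosum (2.42, 1.38 to 3.46). Kcnh4, which encodes a potassium channel, had a value of -1.45 in the callosum and 0.79 in neurospheres, where it held 0.843 to 2.26 CPM (2.24, 1.31 to 3.18). For Acaa2, whose product is a thiolase of mitochondrial fatty acid oxidation, the values were 0.10 in neurospheres and -1.17 in the callosum (1.26, 0.68 to 1.85). In Gstt1, Gstt3, Acta2, Kcnh4 and Acaa2 the highest neurosphere value belonged to Bmal1-/- neurosphere replicate 1, the library that stood apart. Without that library the interaction of Gstt1 passed and those of the others did not.

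The genotype differences in the sources were also set side by side. In the single model 19 genes were called in neurospheres (8 higher, 11 lower, 0.124% of those tested) and 33 in the callosum (22 higher, 11 lower, 0.215%), from libraries that the comparisons do not share. Of the 33 callosum genes 25 were measured in both sources, and 22 of these (88.0%) had the same sign in neurospheres, against 7549 of 12163 genes (62.07%) over all genes measured in both. The exceptions were C4b, A2m and Col18a1. Only Nr1d2, Per3 and Dbp were called in both sources, all 3 lower. The median size of the 25 was 2.11 in the callosum and 0.58, in the same direction, in neurospheres, and 23 had the smaller difference in neurospheres. Since these genes were chosen for a large value in the callosum, a smaller value elsewhere follows in part from the choice. Of the 16 neurosphere genes measured in both sources, 13 had the same sign in the callosum, with medians of 1.99 and 0.40, and Dll4, Cdc42ep3 and Inpp4b had the opposite one. Over all 12163 genes the differences correlated with Pearson r = 0.306 and a Spearman rank correlation of 0.314, given as a description only, since genes share libraries.

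**Figure D2:**
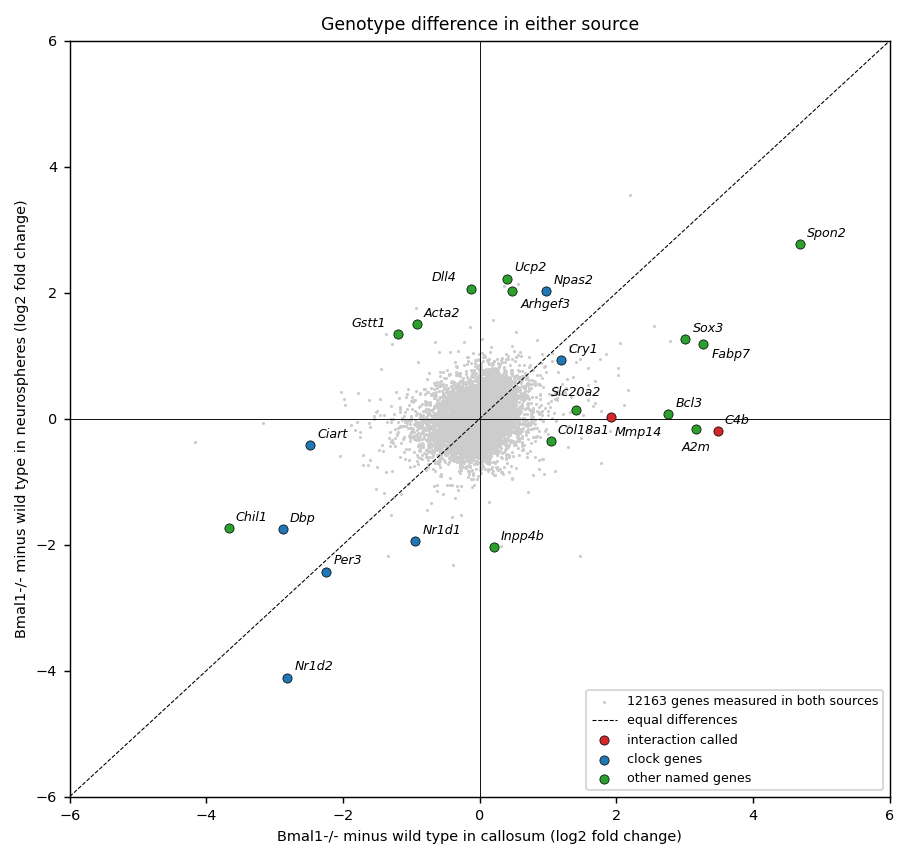
Log2 fold change (Bmal1-/- over wild type) in the callosum (x axis) and in neurospheres (y axis) for 12163 genes measured in both sources, with named genes coloured and equal differences dashed. C4b and Mmp14 (red) lie far to the right and near 0 on the y axis, Nr1d2, Per3 and Dbp (blue) lie low on both axes, and Ucp2, Dll4 and Arhgef3 lie high and near the vertical line.

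Inpp4b, which encodes a phosphoinositide phosphatase, fell in neurospheres from 15.6, 17.9 and 17.4 CPM to 2.7, 5.24 and 4.43 CPM, a difference of -2.04 ± 0.29 (SE, edgeR adjusted p = 0.0174). The callosum held little of it in either genotype, at 1.18, 2.15 and 2.702 CPM against 2.54 and 2.10 CPM, and the interaction was -2.24 (-3.26 to -1.23). The neurosphere call ended without wild-type neurosphere replicate 1 (adjusted p = 0.0587), 2 (0.0793) or 3 (0.0768) or Bmal1-/- neurosphere replicate 3 (0.0562). Genes measured in 1 source only say nothing of a difference between responses. In the callosum these were 8 called genes, Hsd11b1, Krt28, Cyp4f15, Etnppl, Kirrel2, P4ha3, Igsf1 and Egfl6, and in neurospheres 3, Cyp24a1, Trim12a and Trim30d. Etnppl, the gene of an astrocyte phospholyase, fell in the callosum from 8.20, 13.2 and 11.4 CPM to 0.141 and 0.210 CPM (edgeR adjusted p = 0.000212), while its neurosphere libraries held 0 to 2 counts each.

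Trim12a, a gene of the TRIM family, had no count in any Bmal1-/- library of either source. It had 70 counts over the wild-type neurosphere libraries and 32 over the wild-type callosum libraries. Set against 3 counts summed over a group, it was at least 23.8-fold lower in Bmal1-/- neurospheres and at least 6.95-fold lower in Bmal1-/- callosum, and with both Bmal1-/- groups at 0 the size of the fall could not be compared between sources. Its neurosphere call (adjusted p = 0.00934) ended without wild-type neurosphere replicate 1 (0.0548). Trim30d, which lies near it on chromosome 7, had 108 counts in wild-type and 9 in Bmal1-/- neurospheres, and 3 and 0 counts in the callosum, too few for a fold.

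No interaction passed among the 25 core clock genes, all of which were measured in both sources. In 17 of the 25 the genotype difference had the same sign in both, a share near the 62.07% of all genes measured in both sources. In neurospheres Npas2 rose and Nr1d2, Per3, Nr1d1 and Dbp fell (5 of 25, against 0.124% of all genes tested), and in the callosum Cry1 rose and Nr1d2, Per3 and Dbp fell (4 of 25, against 0.215%). At an unadjusted p under 0.05 the interaction of 5 of the 25 clock genes differed from 0, against 4.28% of all genes tested, namely those of Npas2, Nr1d1, Nr1d2, Dbp and Ciart. Their intervals did not include 0, but none passed over all genes. Time of day was not given, so a clock gene compared at 1 unknown phase may differ otherwise at another.

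Both REV-ERB genes had the larger genotype difference, a fall, in neurospheres. Nr1d2, which encodes REV-ERB beta, fell from 59.9, 63.9 and 64.0 CPM to 2.97, 4.19 and 3.68 CPM in neurospheres and from 12.03, 12.3 and 12.2 CPM to 1.20 and 2.24 CPM in the callosum. The log2 fold changes were -4.11 ± 0.21 and -2.82 ± 0.26 (SE), and the interaction was -1.29 (95% interval -1.996 to -0.59, edgeR adjusted p = 0.547), which passed with DESeq2 alone (adjusted p = 0.0497). Nr1d1, which encodes REV-ERB alpha, fell in neurospheres from 109, 209 and 243 CPM to 41.7, 48.8 and 54.9 CPM (-1.95 ± 0.26, edgeR adjusted p = 0.00934). Its callosum levels were 532, 387 and 489 CPM against 239 and 248 CPM (-0.94 ± 0.29, adjusted p = 0.435), and the interaction was -1.005 (-1.81 to -0.20). Its groups did not overlap in either source. The neurosphere calls of Nr1d1 and of Dbp ended without Bmal1-/- neurosphere replicate 2 (adjusted p = 0.0561 for both), and both genes overlap another gene on the opposite strand, Thra and Sphk2.

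Npas2, whose product can replace CLOCK as the partner of BMAL1, rose in neurospheres from 8.54, 7.14 and 10.2 CPM to 29.3, 40.1 and 35.8 CPM (2.02 ± 0.18, SE, edgeR adjusted p = 0.000627). In the callosum, at 160, 153 and 135 CPM against 271 and 313 CPM, the difference was 0.97 ± 0.18 (adjusted p = 0.0632), and the interaction was 1.05 (0.50 to 1.61, adjusted p = 0.495). Clock itself had an interaction of -0.30 (-1.12 to 0.52). Cry1, a repressor gene, had nearly equal differences of 0.93 (edgeR adjusted p = 0.114) and 1.19 (0.0348), with an interaction of -0.26 (-0.84 to 0.33). The callosum call of Cry1 ended with the striatal covariate (0.118) and without wild-type neurosphere replicate 2 (0.0629) or any 1 of the callosum libraries (0.0633 to 0.381). Nfil3, the repressor of D-box genes, stood at 8.41 to 32.4 against 26.5 to 33.6 CPM in neurospheres and at 8.76 to 12.1 against 25.3 and 26.4 CPM in the callosum (interaction -1.001, -2.19 to 0.19).

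Dbp and Ciart, both direct E-box targets, had the larger difference in the callosum. Dbp fell from 27.8, 36.4 and 55.9 CPM to 10.1, 11.7 and 13.7 CPM in neurospheres and from 116, 108 and 130 CPM to 15.3 and 16.7 CPM in the callosum, with log2 fold changes of -1.76 ± 0.23 and -2.88 ± 0.28 (SE) and an interaction of 1.13 (0.38 to 1.88, edgeR adjusted p = 0.877). Ciart, which encodes a repressor of CLOCK and BMAL1, stood at 5.77, 15.2 and 16.8 CPM against 6.29, 12.3 and 9.60 CPM in neurospheres, with overlap, and at 13.3, 13.9 and 14.2 CPM against 3.03 and 1.89 CPM in the callosum, without. Its interaction was 2.06 (0.81 to 3.32, adjusted p = 0.782), the largest in size of the 25 clock genes. Per3, a Period gene, fell in both sources. It went from 57.6, 82.5 and 95.8 CPM to 8.90, 17.2 and 17.7 CPM in neurospheres and from 99.6, 88.8 and 94.97 CPM to 18.7 and 21.2 CPM in the callosum, with log2 fold changes of -2.43 and -2.25 and an interaction of -0.18 (-0.997 to 0.63). The callosum call of Per3 ended with the striatal covariate (adjusted p = 0.0875) and without Bmal1-/- callosum replicate 1 (0.205) or 2 (0.135).

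The promoters of Ciart, Per3 and Chil1 are shown because their windows hold the letters through which BMAL1 or DBP are known to act. No interaction of the 3 passed (edgeR adjusted p = 0.782, 0.999 and 0.782). Each is a 300-base window around the annotated start from RefSeq (GRCm38.p6), read 5′ to 3′ on the strand of the gene, with capitals marking the E-box CACGTG in Ciart and the D-box TTATGTAA or TTACGTAA, searched on both strands, in Per3 and Chil1. Ciart lies on the minus strand at chr3:95882179-95882478, Per3 on the minus strand at chr4:151044616-151044915 and Chil1 on the plus strand at chr1:134181906-134182205.
Ciart: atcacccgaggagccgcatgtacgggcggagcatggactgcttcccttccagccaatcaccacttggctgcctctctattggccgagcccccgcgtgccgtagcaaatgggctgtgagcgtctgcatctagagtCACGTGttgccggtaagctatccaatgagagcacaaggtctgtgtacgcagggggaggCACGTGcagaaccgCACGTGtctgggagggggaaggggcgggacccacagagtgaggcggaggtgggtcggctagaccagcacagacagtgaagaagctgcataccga
Per3: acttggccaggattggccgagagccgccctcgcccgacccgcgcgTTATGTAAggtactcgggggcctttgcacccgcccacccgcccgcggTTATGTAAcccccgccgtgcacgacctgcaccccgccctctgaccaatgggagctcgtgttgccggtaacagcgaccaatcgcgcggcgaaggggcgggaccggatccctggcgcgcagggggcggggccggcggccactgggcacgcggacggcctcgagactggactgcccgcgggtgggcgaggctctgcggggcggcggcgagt
Chil1: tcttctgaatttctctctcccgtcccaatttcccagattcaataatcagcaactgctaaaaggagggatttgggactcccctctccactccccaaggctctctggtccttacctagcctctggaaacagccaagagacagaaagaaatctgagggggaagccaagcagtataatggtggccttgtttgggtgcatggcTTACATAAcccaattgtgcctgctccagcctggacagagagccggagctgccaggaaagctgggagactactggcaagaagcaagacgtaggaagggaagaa
Ciart holds 3 E-boxes, which begin 116, 58 and 44 bases before the start, Per3 holds 2 D-boxes at 205 and 158 bases, and Chil1 holds 1 D-box on its other strand at 52 bases. Over 32851 such windows, 7.15% hold CACGTG and 1.06% either D-box. Of the 49 named genes with a window, 7 hold an E-box (Slc13a3, Ciart, Bhlhe41, Cry1, Per1, Kcnh4 and Tef) and 3 a D-box (Per3, Chil1 and Timeless). Timeless had an interaction of 0.18 (-0.70 to 1.06) and no called genotype difference. A match describes letters, not a bound site.

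**Figure D3:**
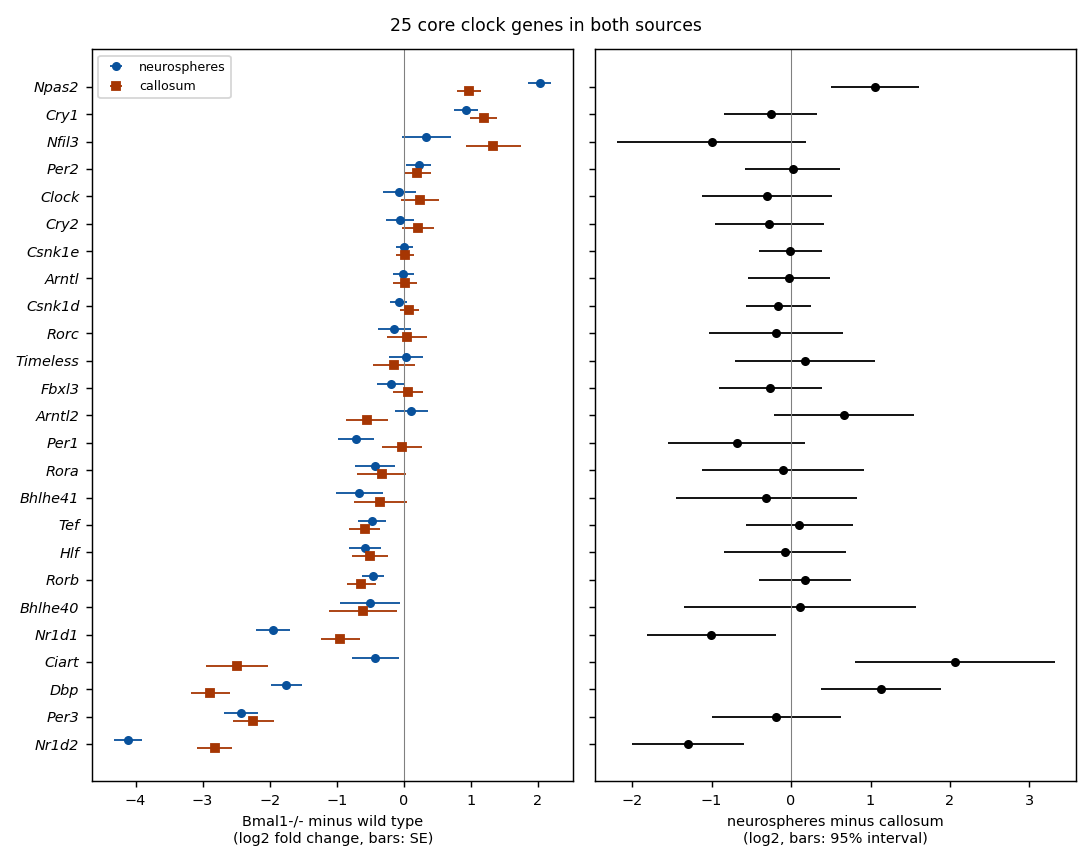
Left, log2 fold change (Bmal1-/- over wild type) of 25 core clock genes in neurospheres (circles) and callosum (squares), bars being SE; right, the interaction with its 95% interval. The intervals of Npas2, Ciart and Dbp lie above 0, those of Nr1d1 and Nr1d2 lie below 0, and the remaining 20 include 0.

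The mean of both genotype differences passed for 38 genes, 24 higher and 14 lower (0.248% of those tested). Among the smallest p-values were those of 5 genes not yet described, with the same sign in both sources and the larger value in the callosum. Col5a3, which encodes a fibrillar collagen chain, went from 52.5, 39.6 and 40.8 CPM to 89.3, 92.7 and 75.0 CPM in neurospheres and from 7.44, 8.67 and 8.38 CPM to 23.6 and 31.8 CPM in the callosum (mean log2 fold change 1.36, edgeR adjusted p = 0.000552, interaction -0.81, -1.37 to -0.25). Plat, the gene of tissue plasminogen activator, went from 255 to 268 CPM to 361 to 443 CPM in neurospheres and from 31.9 to 34.1 CPM to 74.6 and 83.4 CPM in the callosum (mean 0.95, adjusted p = 0.00061, interaction -0.65, -1.06 to -0.23). Hebp2, which encodes a heme-binding protein, had differences of 1.24 in neurospheres and 2.79 in the callosum (interaction -1.55, -2.57 to -0.54). Spon2, which encodes a secreted matrix protein, had 2.77 and 4.69 (interaction -1.92, -4.06 to 0.21), with 1 to 8 counts in each wild-type library, so its sizes are uncertain. Chil1, the gene of a chitinase-like protein, was lower in both sources, at 0.939, 1.31 and 1.15 CPM against 0.531, 0.218 and 0.263 CPM in neurospheres and at 12.5, 11.9 and 10.9 CPM against 1.20 and 0.630 CPM in the callosum (interaction 1.95, 0.77 to 3.12). Bmal1-/- neurosphere libraries held 12, 5 and 6 counts of Chil1, so the size of its fall there is uncertain. No genotype groups overlapped in either source for these 5 genes, and their mean shift held in all 20 alternatives. The 5 were chosen by the p-value of that shift, so both observations follow in part from the choice. The share of genes without overlap was not counted over all genes.

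Reactive astrocyte genes, those that astrocytes raise after injury, were the only one of the gene lists with a called interaction, that of C4b, 1 of 26 tested members against 0.0131% of all genes. At an unadjusted p under 0.05, 7 of the 26 had a negative interaction (C4b, Gfap, Serpina3n, Cd44, Aspg, C3 and Ggta1), against 1.49% of all genes, and 0 had a positive one. The lists were chosen with earlier callosum results of these data known, among them those of C4b, Gfap and Serpina3n. These counts are therefore a description and no independent support. Gfap, the intermediate filament of astrocytes, stood at 466, 156 and 104 CPM against 552, 219 and 226 CPM in neurospheres, with overlap, and at 360, 496 and 425 CPM against 1877 and 1977 CPM in the callosum, without. Its interaction was -1.72 (95% interval -3.28 to -0.16, edgeR adjusted p = 0.999). Serpina3n, a protease inhibitor gene, had an interaction of -1.30 (-2.31 to -0.29). The median of the 18 members measured in both sources was -0.11, against 0.03 over all such genes, so most of the list did not share the size of these 7. Summed over the list, wild-type and Bmal1-/- libraries held 2124 to 3313 and 2526 to 4547 CPM in neurospheres. In the callosum they held 547 to 730 against 2493 and 2739 CPM. Most of that callosum rise lay in Gfap and C4b, whose means went from 427 and 40.5 CPM to 1927 and 452 CPM.

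Of 20 neural stem and progenitor genes, Sox3 and Fabp7 had negative and Emx2 and Lfng positive interactions at an unadjusted p under 0.05 (2 of 20 each way, against 1.49% of all genes negative and 2.79% positive), and the median over the 18 measured in both sources was -0.03. Sox3 and Fabp7 were also genes of the earlier callosum results. Fabp7, the fatty acid carrier of radial glia, stood at 499 to 702 against 845 to 2188 CPM in neurospheres and at 0.556, 1.75 and 0.693 CPM against 10.5 and 8.89 CPM in the callosum (interaction -2.07, -3.35 to -0.79). Its callosum call (edgeR adjusted p = 0.0127) ended without wild-type callosum replicate 1 (0.0892) or 3 (0.102) or Bmal1-/- callosum replicate 1 (0.153) or 2 (0.0705), and with the striatal covariate (0.118). Cdkn1a, a cell cycle inhibitor gene, had -1.04 (-1.70 to -0.38) and the glycolytic gene Pgk1 -0.76 (-1.48 to -0.04), with 0.02 and 0.28 in neurospheres and 1.06 and 1.04 in the callosum, none called. Pgk1 shares 68% of its 50-base stretches with other genes, most often Pgk1-rs7. Reads that map to both are not counted, so its values rest on part of the transcript. No member of the myelin (25 tested), oligodendrocyte precursor (20), microglia (19), endothelial (15), S phase (25), respiratory chain (29) or interferon (19) lists reached an unadjusted p under 0.05, against 4.28% of all genes. At that share a list of such a size would hold few or none, so their absence does not show equal responses.

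Among lists with 3 or more members measured in both sources, the highest median interactions over those members were 0.88 for ependymal genes (5 measured in both), 0.57 for striatal neuron genes (6) and 0.48 for G2 and M phase genes (15). Of the 13, 12 and 25 members tested, 2 of each list had a positive interaction at an unadjusted p under 0.05, against 2.79% of all genes, and none was called. The list of genes around Arntl, Kirrel2 and Trim12a on chromosome 7, drawn from earlier results, had a median of 0.90 over 2 genes measured in both, and the choroid plexus list 1.54 over its 6 tested members. Striatal neuron genes summed to 1372, 3982 and 2306 CPM in wild-type and 1207 and 1564 CPM in Bmal1-/- callosum, and choroid plexus genes, none of them measured in both sources, to 23.9, 48.1 and 185 CPM against 14.5 and 11.1 CPM. Their part in the callosum differences was not tested beyond the fit with a striatal covariate, under which the interaction of C4b was -4.01 and that of Mmp14 -1.97. G2 and M phase genes summed to 53.5 to 100.3 CPM in the callosum against 1919 to 2979 CPM in neurospheres. Ribosomal protein genes summed to 4705 CPM in Bmal1-/- neurosphere replicate 1 against 2430 to 3127 CPM in the other neurosphere libraries, and respiratory chain genes to 3075 against 1550 to 1897 CPM. In the callosum the same lists were highest in Bmal1-/- replicate 1, at 2764 against 2001 to 2277 CPM and at 4102 against 2686 to 2764 CPM. The interaction medians of these lists were 0.14 and 0.20.

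**Figure D4:**
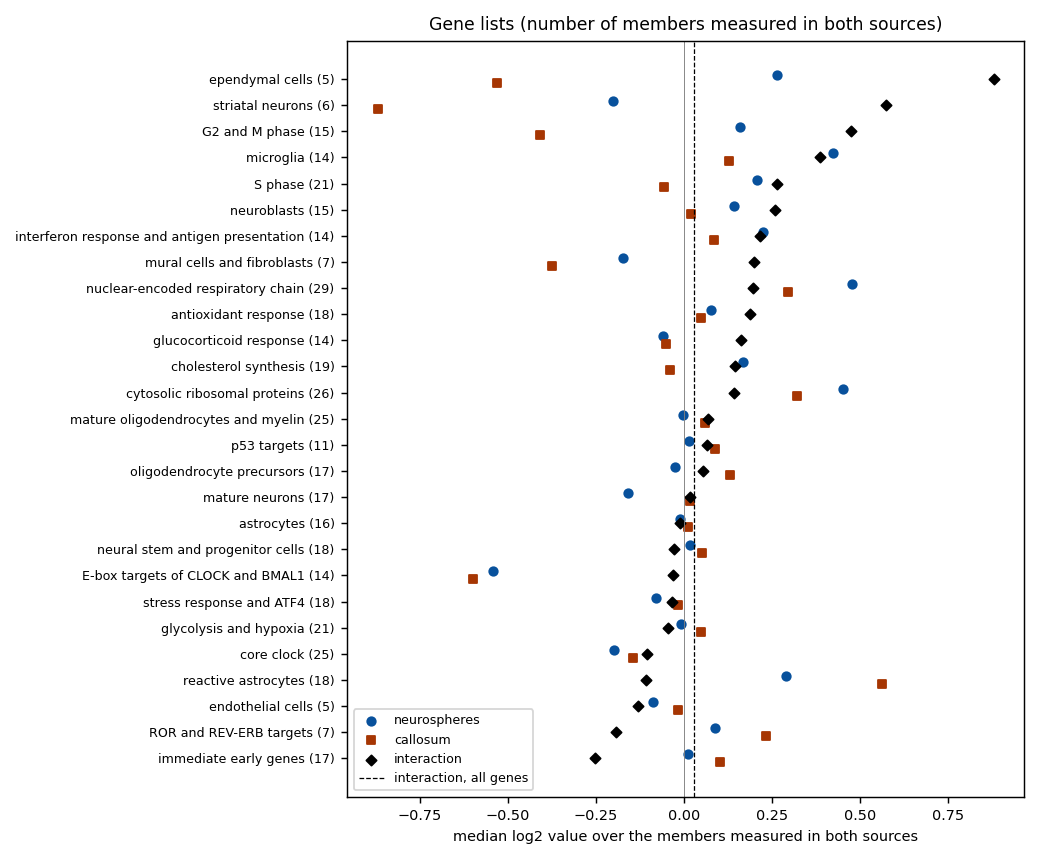
Median log2 fold change (Bmal1-/- over wild type) in neurospheres (circles) and callosum (squares) and median interaction (diamonds) over the members measured in both sources, their number in brackets, for each list with 3 or more of them; the dashed line is the median interaction of all such genes (0.03). Of the lists plotted, the diamonds of the ependymal, striatal and G2 and M phase lists lie farthest to the right (0.88, 0.57 and 0.48), and the reactive astrocyte list lies at -0.11.

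**Figure D5:**
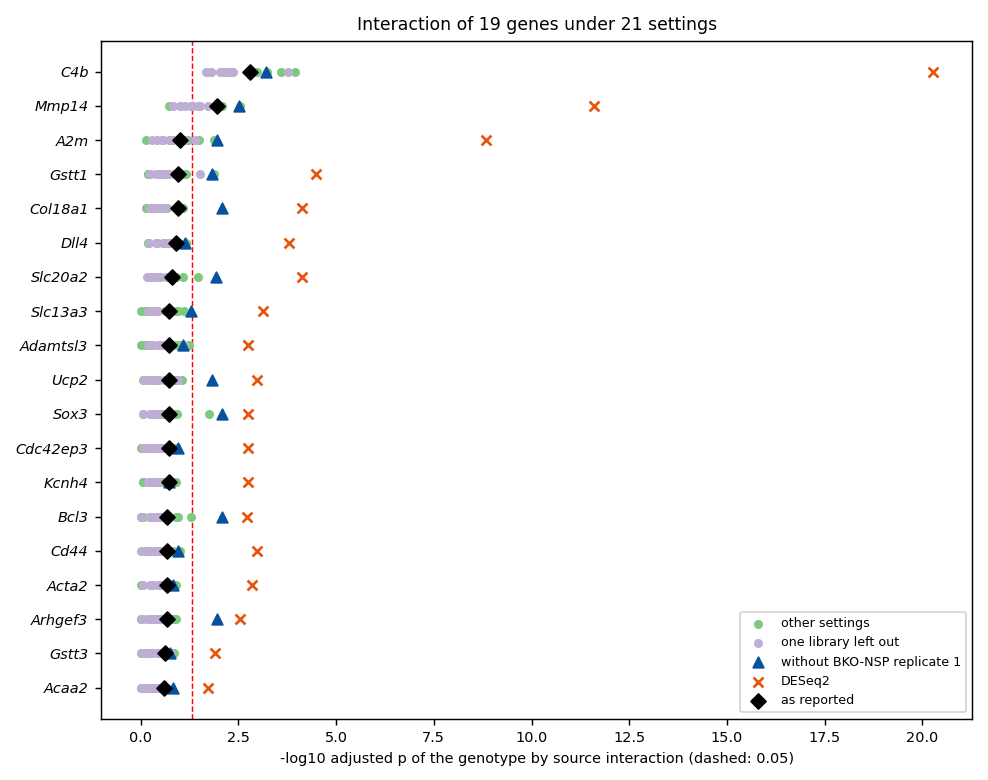
Adjusted p of the interaction, as -log10, for 19 of the 20 genes with the smallest p-values (10 in each direction) under 21 settings; diamonds are the values reported, crosses DESeq2, triangles the fit without Bmal1-/- neurosphere replicate 1, and the dashed line is 0.05. All symbols of C4b lie to the right of the line, those of Mmp14 fall on both sides, and for the other 17 genes the reported value lies to the left.

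The library that stood apart bore on how many interactions passed. Without Bmal1-/- neurosphere replicate 1 the count was 10 in place of 2, with C4b and Mmp14 joined by Gstt1, Ucp2 and Arhgef3 (positive) and by A2m, Col18a1, Bcl3, Slc20a2 and Sox3 (negative). Without other single libraries it was 1 to 3. Without Bmal1-/- callosum replicate 1 the interactions of C4b and Mmp14 were -3.86 and -2.08, and without replicate 2 they were -3.46 and -1.68. Either fit leaves 1 library in that group. With offsets for transcript length the count of interactions was 6, with Gstt1, A2m, Slc20a2 and Sox3 added, and with DESeq2 all 19 genes of the plot of settings passed.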

How the data were processed

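The deposited files hold raw read counts per gene for 24411 symbols, per the file headers and values, from reads that the authors aligned with STAR 2.7.1a to build mm10 (per the submitters' processing notes). No source used here names the annotation behind the counts. RNA was sequenced on the BGISEQ-500 platform after poly(A) selection or rRNA depletion, the labels not saying which. Counts without regard to strand (the first strand took 49.6% to 50.8%) were used as deposited by the authors, and the 4 summary rows of unassigned reads, 7.77% to 22.6% of reads being unmapped, did not enter library sizes or tests. Reads of genes that overlap on opposite strands cannot be told apart, and reads mapping to several places are not counted.

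One model of the 4 groups was fitted to all 11 libraries with edgeR 4.0.16 in R 4.3.3 (TMM scaling, filterByExpr by group, glmQLFit with robust = TRUE, glmQLFTest, two-sided), with Benjamini-Hochberg adjustment over all 15322 genes and a threshold of 0.05. The contrasts were the interaction, the genotype difference in each source and their mean, so all of them share 1 estimate of spread. SE is the size of a log2 fold change divided by the square root of F, and intervals are 95% intervals from the same fit. Replicates of a group differed far beyond sampling noise (chi-square per degree of freedom 6.85 to 132), and each was kept. Because nothing says that they were separate animals or cultures, the spread behind the p-values may be technical.

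Alternatives were RLE and upper-quartile scaling, no filter, genes measured in both sources only, DESeq2 1.42.0, limma-voom (limma 3.58.1) with 1 variance per source, the replicate number as a block, offsets for transcript length (GENCODE M21 lengths, matched for 95.8% of symbols), a covariate for striatal neuron genes in the callosum, and leaving out each library. Scripts were tested on simulated data. Promoter windows and gene positions are from RefSeq (GRCm38.p6). Named genes were those called for the interaction, the core clock list, the 10 smallest interaction p-values in each direction among genes measured in both sources, the genes called in both sources or with the 15 smallest p-values for the mean difference, genes called in 1 source with an opposite sign at an unadjusted p under 0.05 in the other, members of a list called for the interaction, and 16 genes of earlier results. 1 gene chosen by this rule is not reported here. The contrast, the gene lists and the named genes were chosen with earlier results of these data known. The allele, the time of collection and the dissection limits were not analysed here.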

Additional observations from a re-analysis of the deposited data

Results flagged for a closer look

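The genotype difference passed a test of inequality between callosum and neurospheres for C4b, with an interaction of -3.675 on the log2 scale, and for Mmp14, with -1.891. In both, every Bmal1-/- callosum library lay above every wild-type callosum library while the neurosphere groups overlapped. C4b passed in each of the 20 alternatives, and Mmp14 in 13 of them.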

How the results depend on the processing

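The count of called interactions, 2, was 37 with DESeq2, 6 with length offsets, and 1 with the replicate block and with the striatal covariate, and ranged from 1 to 10 when single libraries were left out, the 10 being without Bmal1-/- neurosphere replicate 1. The 19 genes called in neurospheres became 57 with DESeq2, 29 with length offsets and 8 with the replicate block (9 to 26 with 1 library left out). The 33 called in the callosum became 113 with DESeq2, 160 with limma-voom, 64 with length offsets, 17 with the replicate block and 13 with the striatal covariate (13 to 139 with 1 library left out, the 139 again without Bmal1-/- neurosphere replicate 1). The 38 called for the mean became 142 with DESeq2, 71 with length offsets, 19 with the replicate block and 22 with the striatal covariate (20 to 88). The cause of these moves was not tested. Of the same-numbered libraries, pairs 1 and 3 of the neurospheres deviated together and the other pairs did not (r = 0.282, -0.008 and 0.326 in neurospheres, 0.051 and 0.018 in the callosum), and wild-type neurosphere replicate 2 correlated best with Bmal1-/- replicate 3 (0.301), so the numbers were not taken to pair the libraries. With the replicate block C4b passed (edgeR adjusted p = 0.0161) and Mmp14 did not (0.193). The block also ended the neurosphere calls of Dll4 (0.0733), Cdc42ep3 (0.199), Inpp4b (0.0565), Trim12a (0.207) and Trim30d (0.134) and the callosum calls of Cry1 (0.135), A2m (0.0565), Col18a1 (0.224), Slc13a3 (0.123), Bcl3 (0.23), Plat (0.0757), Hebp2 (0.108) and Fabp7 (0.134).

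Over 64 named genes and the 20 alternatives, 1276 interaction values were computed. None of the called values turned sign, 1180 stayed on their side of the threshold with the same sign, 35 passed only under the alternative, 7, all of Mmp14, no longer passed, and 54 uncalled values in 14 genes changed sign. Interaction sizes are limited by depth for genes near the floor of 3 counts. Among these were A2m, Cd44 and Fabp7 in wild-type callosum, Chil1 in Bmal1-/- neurospheres and Spon2 in the wild-type libraries of both sources. The callosum contrast, with 2 Bmal1-/- libraries, had a larger median standard error than the neurosphere contrast (0.238 against 0.207, genes measured in both sources). Both rest on 1 estimate of spread per gene, so these errors do not show which source varied more. Chi-square per degree of freedom between replicates reached 132 in neurospheres and 24.95 in the callosum.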
